A study of Saccharomyces cerevisiae with 12 samples.

Results

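The gcn5 mutant of budding yeast, Saccharomyces cerevisiae, was compared with wild type during growth without Congo Red, using the 3 gcn5 arrays and the 3 wild type arrays that were not treated, 6 of the 12 arrays in the study. Both strains have the BY4741 genetic background, a haploid laboratory strain of mating type a, and differ in the genotype label, gcn5 mutant or wild type. The gcn5 allele and the number of isolates behind each strain are not given in the sources used here. Cells of both strains were diluted into fresh rich medium (YPD) and grown on, and each culture was then split, with the untreated part left to grow for a further 3 h beside a part given 30 µg/ml Congo Red, a dye that disturbs the cell wall. Total RNA was hybridised to Affymetrix arrays, and the samples are labelled 1 to 3 in each group. The study's design text describes them as 3 biological samples for each strain and condition, and the p-values measure the spread between them. Of the probe sets that the platform annotation pairs with 1 gene, the one with the highest mean was used for each gene. That gave 5345 genes to test after the dimmest were left out.

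Gcn5 is a histone acetyltransferase that works within the coactivator complexes SAGA and ADA, which transcription factors recruit to promoters and upstream sites. It acetylates lysines in the tails of histones, mainly H3, and its loss is known to affect inducible genes more than housekeeping genes. The acid phosphatase gene PHO5, the mating type switching gene HO and genes under Gcn4, the activator of amino acid synthesis, are textbook genes for studies of SAGA.

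All values are GCRMA levels on the log2 scale, where a difference of 1 is a 2-fold change, and a level near 4 or below was taken as the background of the array. A gene was called changed when limma's moderated test gave a Benjamini-Hochberg adjusted p under 0.05 over all 5345 genes. Differences are gcn5 minus wild type, with limma's standard error (SE) and 3 arrays in each group. The spread behind each SE was estimated over all 12 arrays, those in Congo Red included, so precision still rests on few arrays. The array medians lay between 9.01 and 9.05. The arrays numbered 3 stood apart in both strains. In gcn5 cells 219 and 176 genes were over 1 log2 unit apart between array 3 and arrays 1 and 2, against 17 between arrays 1 and 2. In wild type cells these numbers were 100 and 107, against 25. The count over all genes, the counts of lists with 4 or more calls and the values of genes in which array 3 lay over 1 unit from both other arrays of its strain are therefore also given without both untreated arrays of that number. The Congo Red arrays numbered 3 stayed in those fits.

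GCN5 itself (YGR252W) was at 3.72, 4.08 and 3.36 in gcn5 cells, against 8.13, 8.32 and 8.33 in wild type cells. The levels of the mutant sat at the background on all 3 arrays and the wild type levels lay close together, so the labels of all 6 arrays hold for this gene. The fall was at least 18.8-fold when values under 4 were set to 4 (adjusted p = 3.5e-07). None of the 7 tested genes nearest to GCN5 on its chromosome passed (adjusted p from 0.121 to 0.959). Of 4 marker genes mutated in the strain background, URA3 and MET17 were under 4 on all 6 arrays. LEU2 was at 4.34, 4.35 and 4.40 in gcn5 cells, against 4.12, 4.27 and 4.25 in wild type cells, a little above 4 on every array. HIS3, whose mutant allele in this background lacks only part of the gene, was at 9.99, 9.96 and 9.54 in gcn5 cells, against 9.87, 10.08 and 9.62 in wild type cells.

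In all 525 of the 5345 genes passed (9.82%), 262 higher in gcn5 cells (4.90%) and 263 lower (4.92%). Falls were larger than rises at the extremes. Of the genes lower in gcn5 cells 66 changed at least 2-fold (1.23% of all tested), 19 at least 4-fold and 10 at least 8-fold, while 49 of those higher changed at least 2-fold (0.917%), 6 at least 4-fold and 2 at least 8-fold. The median difference was 0.60 among the rises and -0.68 among the falls, and it was 0.02 over all genes tested. In 1732 genes (32.4%) the gcn5 arrays did not overlap the wild type arrays, 923 with gcn5 higher (17.3%) and 809 with gcn5 lower (15.1%). A fit with the replicate number as a block called 881 genes (16.5%), of which 467 were higher (8.74%), 414 were lower (7.75%) and 486 were among the 525. Without both untreated arrays numbered 3 the count was 202 (3.78%), 191 of them among the 525. Without all 4 arrays numbered 3, those in Congo Red included, it was 511, with 335 among the 525. List counts below with the block or without both arrays numbered 3 are to be read beside the shares of those fits. All 525 kept their sign in every other setting run, apart from 7 that the stricter filter left untested. The count was 305 and 301 without wild type arrays 1 and 2, 349, 284 and 265 without gcn5 arrays 1, 2 and 3, and 389 without wild type array 3, and 213 of the 525 passed whichever of these was left out.

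**Figure D1:**
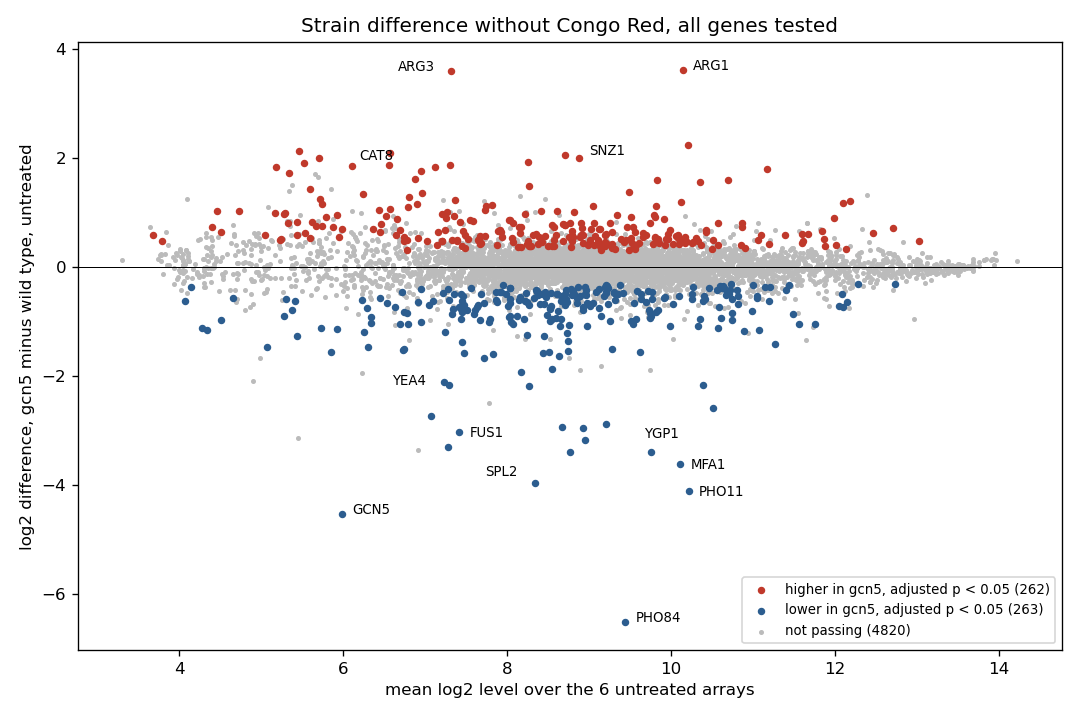
The log2 difference of gcn5 minus wild type cells without Congo Red (vertical axis) is plotted against the mean log2 level over the 6 untreated arrays (horizontal axis), with 1 point for each of 5345 genes. The 262 red genes passed and were higher in gcn5 cells, the 263 blue genes passed and were lower, and PHO84 and GCN5 lie lowest while ARG1 and ARG3 lie highest.

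Of the 37 gene lists described here, the one of phosphate genes had the most members lower in the mutant. Genes of the phosphate response are switched on by the factor Pho4 when phosphate is short. The cyclin-dependent kinase Pho85 with its cyclin Pho80 holds them off. Among them PHO5 and PHO84 are model genes for chromatin opening at promoters. The list also holds regulators and genes outside that response, such as PHO3. Of 25 phosphate genes 15 were lower in gcn5 cells, 0 were higher and 10 did not pass (median difference -0.94). That is 60% of the list, against 4.92% lower among all genes. When 1 untreated array was left out 13 to 16 of them passed, and 13 passed without both arrays numbered 3.

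The high-affinity phosphate transporter gene PHO84 had the largest fall of all genes. Its level was 4.77, 4.71 and 9.08 in gcn5 cells, against 12.13, 12.72 and 13.25 in wild type cells. It was near background on gcn5 arrays 1 and 2 and far higher on gcn5 array 3, still below every wild type array. The difference was -6.52 ± 1.19 (adjusted p = 0.0072), and -7.69 without both arrays numbered 3 (adjusted p = 0.0052). On the Congo Red arrays PHO84 was at 4.58, 4.28 and 8.19 in gcn5 cells, so number 3 was the highest there too. The sodium-dependent phosphate transporter gene PHO89 was at 7.35, 7.25 and 7.50 in gcn5 cells, against 9.49, 10.47 and 11.63 in wild type cells, a difference of -3.16 ± 0.47 (adjusted p = 0.0025). For this gene the gcn5 arrays were close together and the wild type arrays were spread over more than 2 units, with array 3 on top. The PHO89 difference was -2.68 without both arrays numbered 3 (adjusted p = 0.0109).

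All 3 secreted acid phosphatase genes tested were lower. PHO5 was at 7.33, 7.41 and 7.62 in gcn5 cells, against 9.36, 10.32 and 11.52 in wild type cells, a 7.7-fold fall (adjusted p = 0.0045). PHO11 was at 8.21, 8.10 and 8.20 in gcn5 cells, against 11.62, 12.02 and 13.17 in wild type cells, a 17.1-fold fall (adjusted p = 0.00019). PHO3, the acid phosphatase gene that is not induced by phosphate shortage, was at 7.74, 7.66 and 5.82 in gcn5 cells, against 10.48, 10.66 and 10.23 in wild type cells, and fell 10.5-fold (adjusted p = 0.0019). In each of these genes all gcn5 arrays lay below all wild type arrays. Leaving out both arrays numbered 3 gave differences of -2.47 for PHO5 (adjusted p = 0.0195), -3.66 for PHO11 (adjusted p = 0.0012) and -2.87 for PHO3 (adjusted p = 0.0043). PHO11 has a near-identical copy, PHO12, and PHO3 and PHO5 are similar neighbours, so these probe sets may share signal.

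SPL2, which encodes a small inhibitor of low-affinity phosphate uptake, fell 15.6-fold (adjusted p = 0.00027), and PHM6, a phosphate gene of unknown function, 9.85-fold (adjusted p = 0.00043). Without both arrays numbered 3 the differences were -3.37 for SPL2 (adjusted p = 0.0015) and -2.75 for PHM6 (adjusted p = 0.0022). PHM8, which encodes a phosphatase of lysophosphatidic acid and nucleotides, was at 6.09, 5.99 and 5.90 in gcn5 cells, against 7.51, 7.60 and 7.38 in wild type cells (-1.51 ± 0.15, adjusted p = 0.00019). The vacuolar transporter chaperone complex, which makes polyphosphate, was lower in all 4 of its subunits tested. VTC3 was at 9.13, 9.21 and 9.33 in gcn5 cells, against 11.25, 11.73 and 12.42 in wild type cells, a difference of -2.58 ± 0.32. VTC4, the catalytic subunit, fell by 1.17 ± 0.21, VTC1 by 1.04 ± 0.18 and VTC2 by 0.94 ± 0.16 (adjusted p from 0.0048 to 0.0065). All these calls held whichever untreated array was left out.

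Of the regulators, the gene of the kinase inhibitor PHO81 was lower, at 8.39, 8.37 and 8.56 in gcn5 cells, against 9.17, 9.55 and 9.83 in wild type cells (-1.07 ± 0.20, adjusted p = 0.0072). PHO4 itself differed by -0.62 ± 0.18 and did not pass (adjusted p = 0.0561, but 0.0352 without wild type array 2), and the vacuolar phosphatase gene PHO8 differed by -0.81 ± 0.25 (adjusted p = 0.0642, but 0.0355 without wild type array 1). The kinase gene PHO85 did not pass either (0.37 ± 0.14, adjusted p = 0.136). PHO91, a vacuolar phosphate transporter gene, differed by -0.66 ± 0.14 (adjusted p = 0.0172), a call lost without gcn5 arrays 1 or 3 or wild type arrays 2 or 3 (adjusted p from 0.0542 to 0.0657). GDE1, a glycerophosphodiesterase gene, differed by -0.55 ± 0.15 (adjusted p = 0.0454), a call lost without any 1 untreated array other than wild type array 1 (adjusted p from 0.0803 to 0.128). PHO86, needed for export of Pho84 from the endoplasmic reticulum, passed with the replicate block alone (adjusted p = 0.03, against 0.0654).

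**Figure D2:**
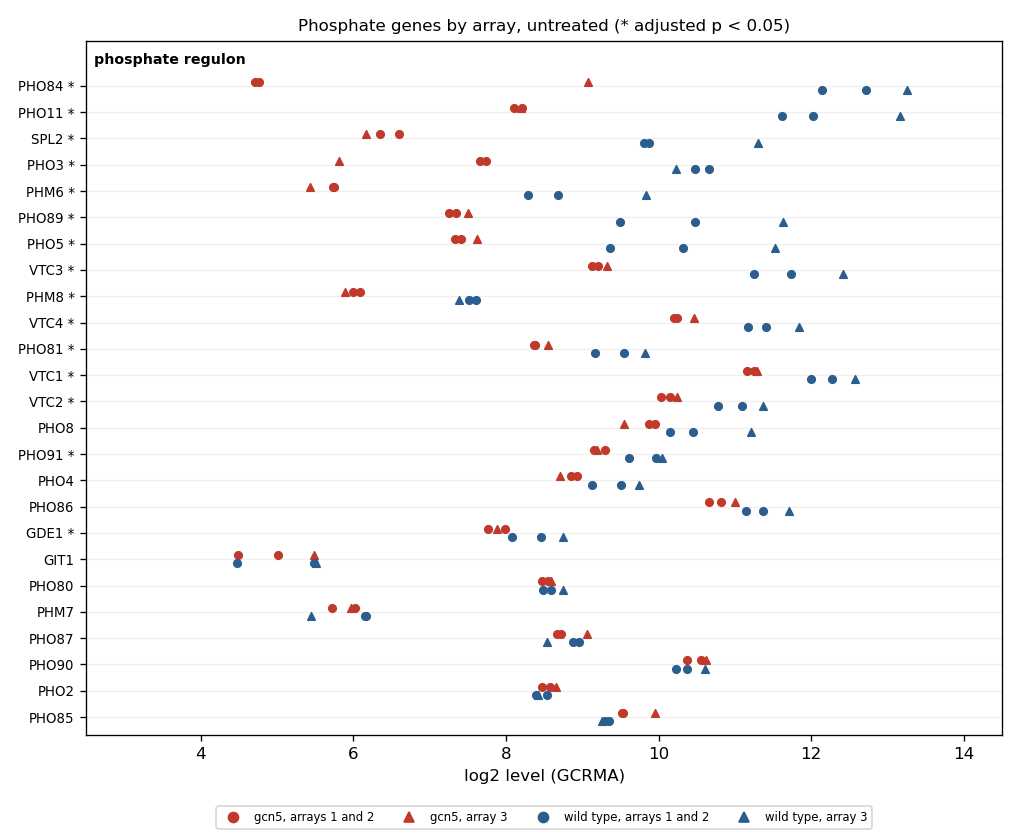
Log2 levels of the 25 phosphate genes tested are plotted by array, with gcn5 in red above wild type in blue, arrays numbered 3 as triangles and a star by each of the 15 genes that passed. From PHO84 down to VTC2 each gcn5 array lies left of every wild type array, and the gcn5 array 3 of PHO84 lies far to the right of the other gcn5 arrays.

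Genes of mating were lower as well. Haploid a cells make a-factor, its exporter and the receptor for alpha-factor under the regulators Mcm1 and Ste12, and pheromone passes through a G protein and a MAP kinase cascade to Ste12, which induces genes for arrest, adhesion and fusion. The samples are bulk RNA, so fewer cells of a kind and less RNA in each cell cannot be told apart. Of 7 a-specific genes 4 were lower (57.1%, against 4.92% among all genes), 0 were higher and 3 did not pass (median -1.90). The gcn5 arrays lay below the wild type arrays in each of the 7, as they did in 15.1% of all genes. In all 4 passed, but 2 without gcn5 array 3 or wild type arrays 1 or 2, and 2 without both arrays numbered 3. The summed linear level of the 7 genes ranged from 3868.4 to 8424.5 on gcn5 arrays, against 12849.8 to 23883.4 on wild type arrays.

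The a-factor gene MFA1 was at 8.41, 8.44 and 8.10 in gcn5 cells, against 12.46, 12.45 and 10.85 in wild type cells, a 12.2-fold fall (adjusted p = 0.00087). BAR1, whose secreted protease destroys alpha-factor, was at 8.34, 8.49 and 6.47 in gcn5 cells, against 10.86, 11.04 and 10.05 in wild type cells (-2.88 ± 0.51, adjusted p = 0.0065). On arrays numbered 3 both genes were lower than on the other arrays of the same strain, and without those arrays the differences were -4.03 for MFA1 and -2.53 for BAR1 (adjusted p = 0.00084 and 0.0072). The a-factor exporter gene STE6 differed by -1.09 ± 0.25 (adjusted p = 0.0202), a call lost without gcn5 array 3 or wild type arrays 1 or 2 (adjusted p from 0.0518 to 0.071). The alpha-factor receptor gene STE2 differed by -1.05 ± 0.30 (adjusted p = 0.0499), a call lost without any 1 of the 6 untreated arrays (adjusted p from 0.0569 to 0.162).

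The other 3 a-specific genes passed with the replicate number as a block. That brought all 7 under 0.05, in a fit that called 7.75% of all genes lower. The agglutinin subunit gene AGA2 was at 9.07, 9.01 and 8.32 in gcn5 cells, against 11.42, 11.42 and 9.25 in wild type cells (adjusted p = 0.101, and 0.0253 with the block). In this gene the wild type array 3 lay more than 2 units below the other wild type arrays. ASG7, whose product acts on the G protein beta subunit, differed by -2.49 ± 0.84 (adjusted p = 0.0919, and 0.0214 with the block), and the second a-factor gene MFA2 by -1.10 ± 0.49 (adjusted p = 0.19, and 0.0327 with the block). The differences without both arrays numbered 3 were -2.38 for AGA2 (adjusted p = 0.0785), -3.05 for ASG7 (adjusted p = 0.0695) and -0.79 for MFA2 (adjusted p = 0.466). AGA2 and ASG7 passed without wild type array 3 alone (adjusted p = 0.0265 and 0.023). AFB1, whose secreted product is a barrier to a-factor, is in neither the a-specific nor the alpha-specific list but was among the 25 largest falls. It was at 6.03, 5.88 and 5.21 in gcn5 cells, against 8.60, 8.66 and 8.05 in wild type cells (-2.73 ± 0.21, adjusted p = 5.1e-05).

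Markers of alpha cells and of diploid or meiotic cells were read beside the a-specific genes. Of the 5 listed alpha-specific genes in the table, which did not include AFB1, MF(ALPHA)1 and HMLALPHA1 were under 4 on all 6 arrays. The other 3 were above it and overlapped between the strains: the agglutinin gene SAG1 was at 8.0, 8.30 and 8.32 in gcn5 cells, against 8.0, 8.45 and 7.92 in wild type cells, the second alpha-factor gene MF(ALPHA)2 at 5.52, 5.43 and 5.61 in gcn5 cells, against 5.81, 5.80 and 5.26 in wild type cells and the a-factor receptor gene STE3 at 4.88, 5.08 and 4.92 in gcn5 cells, against 4.85, 5.02 and 4.87 in wild type cells. The summed level of the 5, most of it from SAG1, was 354.3 to 420.3 on gcn5 arrays, against 334.6 to 464.7 on wild type arrays. The summed level of 17 diploid or meiotic markers was 953.4 to 1026 on gcn5 arrays, against 917.4 to 984.3 on wild type arrays. Of the 19 of these markers tested 3 were higher (15.8%) and 2 lower (10.5%), against 4.90% and 4.92% among all genes. With the replicate block 5 were higher and 1 lower, and 2 were higher and 0 lower without both arrays numbered 3. The count of 5 was 2 without gcn5 arrays 2 or 3 or wild type array 1, and 3 without gcn5 array 1 or wild type array 2. The meiotic activator gene NDT80 was at 7.19, 6.99 and 7.15 in gcn5 cells, against 6.16, 5.97 and 6.01 in wild type cells (1.07 ± 0.15, adjusted p = 0.0017), and the spore wall gene DIT1 was higher by 0.99 ± 0.17 (adjusted p = 0.0057). Both kept their calls whichever untreated array was left out. SPS4, a gene of sporulation, was lower, at 6.01, 5.90 and 4.80 in gcn5 cells, against 7.30, 7.22 and 6.58 in wild type cells (-1.46 ± 0.37, adjusted p = 0.0322), a call lost without gcn5 arrays 2 or 3 or wild type arrays 1 or 2 (adjusted p from 0.0527 to 0.108). ZIP1, which encodes a protein that joins paired meiotic chromosomes, differed by -0.40 ± 0.11 (adjusted p = 0.0466, and 0.0532 with the block), a call lost without any 1 untreated array other than wild type array 2 (adjusted p from 0.0923 to 0.15). The SPS4 difference was -1.31 without both arrays numbered 3 (adjusted p = 0.0746). The part of these markers in the mating results was not tested.

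Of 16 genes of pheromone signalling 5 were lower (31.2%, against 4.92% among all genes), 0 were higher and 11 did not pass (median -0.33). In all 5 passed, but 3 without gcn5 arrays 1 or 2 or wild type array 2, and 3 without both arrays numbered 3. FAR1, which holds cells in G1 on exposure to pheromone, was at 7.85, 7.80 and 5.97 in gcn5 cells, against 10.33, 10.37 and 9.72 in wild type cells (-2.93 ± 0.49, adjusted p = 0.0048). SST2, which encodes the brake on the G protein alpha subunit, was at 7.15, 7.58 and 6.81 in gcn5 cells, against 9.24, 9.72 and 9.09 in wild type cells (-2.17 ± 0.28, adjusted p = 0.0012). GPA1, the alpha subunit gene, was at 9.73, 9.42 and 9.20 in gcn5 cells, against 10.69, 10.64 and 10.26 in wild type cells (-1.08 ± 0.20, adjusted p = 0.0087). These 3 genes passed whichever untreated array was left out, and their gcn5 arrays all lay below the wild type arrays. The FAR1 difference was -2.52 without both arrays numbered 3 (adjusted p = 0.0087). The calls of the MAP kinase genes were lost in most of the fits that left out 1 untreated array. FUS3 differed by -0.95 ± 0.25 (adjusted p = 0.0389), a call lost without any 1 untreated array other than wild type array 3 (adjusted p from 0.0871 to 0.134). KSS1 differed by -0.39 ± 0.10 (adjusted p = 0.0269), a call lost without gcn5 arrays 1 or 2 or wild type arrays 2 or 3 (adjusted p from 0.0558 to 0.104). The beta subunit gene STE4 (-0.46 ± 0.16, adjusted p = 0.101) did not pass, nor did the scaffold gene STE5 (-0.29 ± 0.10, adjusted p = 0.0873). The transcription factor gene STE12 differed by -0.38 ± 0.13 (adjusted p = 0.094, and 0.0394 with the block).

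Of 18 pheromone-induced genes 5 were lower (27.8%, against 4.92% among all genes), 0 were higher and 13 did not pass (median -1.13). With the replicate block 8 were lower, and without both arrays numbered 3 the count was 4. The count of 5 was 2 without wild type array 2, 3 without gcn5 arrays 2 or 3 or wild type array 1, and 10 without wild type array 3. FUS1, needed for cell fusion, was at 6.13, 6.48 and 5.11 in gcn5 cells, against 9.61, 9.51 and 7.67 in wild type cells (-3.02 ± 0.62, adjusted p = 0.0117, and 0.0501 without wild type array 2). The FUS1 difference was -3.26 without both arrays numbered 3 (adjusted p = 0.0135). FIG1, a membrane protein gene of mating, shows the split among the wild type arrays. It was at 3.90, 4.0 and 3.75 in gcn5 cells, against 8.25, 8.88 and 3.92 in wild type cells. All gcn5 arrays and wild type array 3 lay at background, and the other wild type arrays were more than 4 units above it. On the Congo Red arrays FIG1 was at 4.16, 4.11 and 3.59 in gcn5 cells, against 8.13, 8.46 and 3.80 in wild type cells. What sets number 3 apart was not tested. FIG1 did not pass (adjusted p = 0.171), and neither did AGA1, the anchor subunit of agglutinin, at 8.02, 8.37 and 8.30 in gcn5 cells, against 10.66, 10.92 and 8.58 in wild type cells (adjusted p = 0.136). Leaving out both arrays numbered 3 gave differences of -4.62 for FIG1 (adjusted p = 0.0778) and -2.60 for AGA1 (adjusted p = 0.0938). Both passed without wild type array 3 alone (adjusted p = 0.0403 for AGA1 and 0.0301 for FIG1).

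PCL2, a cyclin gene of Pho85, and GIC2, an effector gene of the GTPase Cdc42, fell by 0.83 ± 0.15 and 0.56 ± 0.11 (adjusted p = 0.0072 and 0.0093), and both kept their calls whichever untreated array was left out. KAR4, a regulator gene of nuclear fusion, was at 8.15, 8.08 and 7.97 in gcn5 cells, against 9.78, 9.86 and 8.62 in wild type cells (adjusted p = 0.0237), a call lost without any 1 untreated array other than wild type array 3 (adjusted p from 0.0537 to 0.0924). The KAR4 difference was -1.71 without both arrays numbered 3 (adjusted p = 0.0109). AFR1, a gene of the mating projection, differed by -1.19 ± 0.32 (adjusted p = 0.0388), a call lost without gcn5 arrays 2 or 3 or wild type arrays 1 or 2 (adjusted p from 0.0911 to 0.139).

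**Figure D3:**
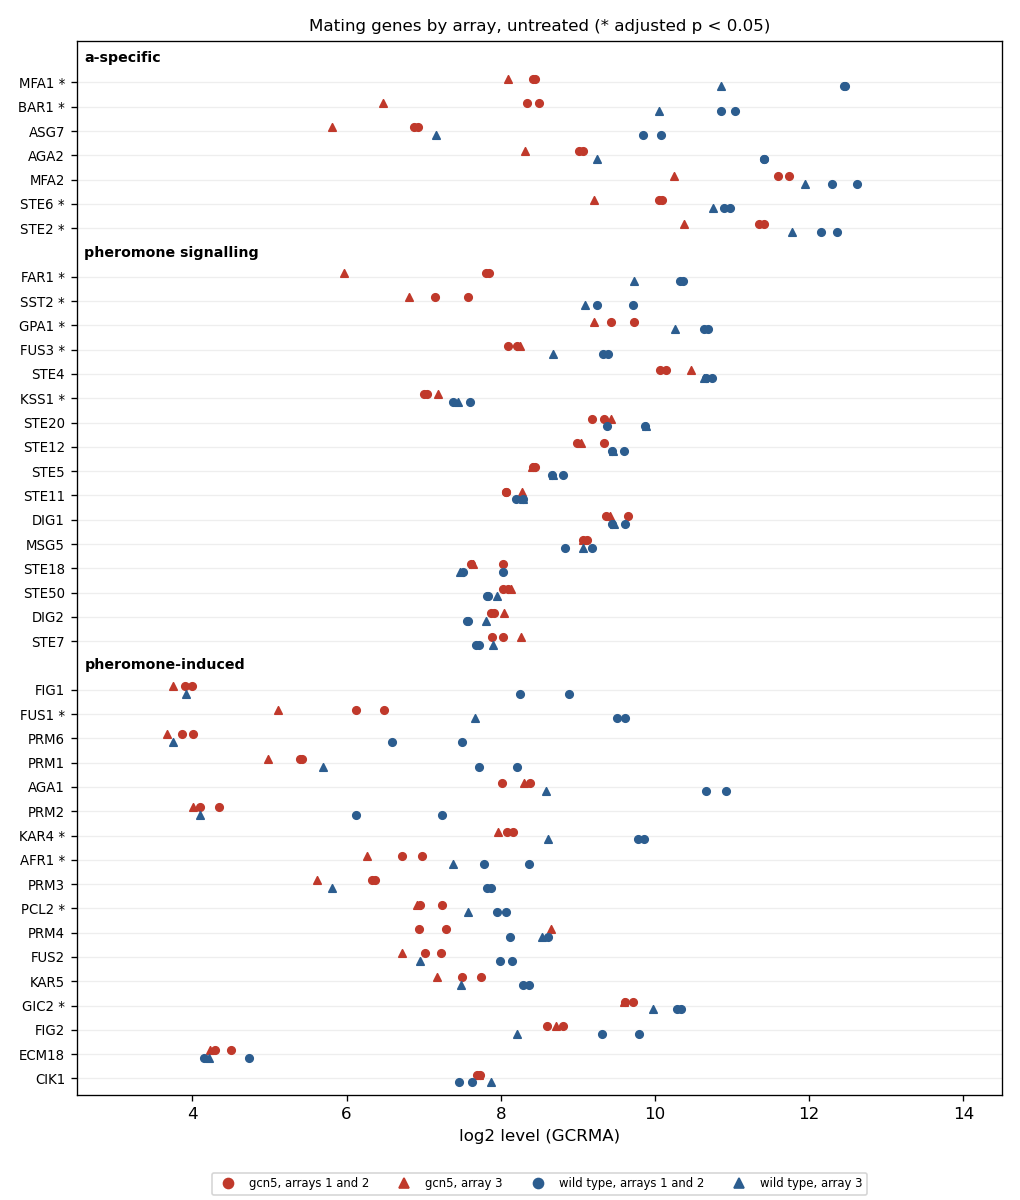
Log2 levels of the a-specific, pheromone signalling and pheromone-induced genes tested are plotted by array, with gcn5 in red above wild type in blue, arrays numbered 3 as triangles and a star by each gene that passed. The wild type triangle of FIG1, PRM6 and PRM2 lies among the gcn5 points, and in MFA1 and FAR1 every gcn5 array lies left of every wild type array.

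Arginine synthesis held the 2 largest rises. Arginine genes are activated by Gcn4 and repressed by the ArgR complex, which contains Mcm1, when arginine is present. Of 16 genes of arginine synthesis and breakdown 4 were higher (25%, against 4.90% among all genes), 0 were lower and 12 did not pass (median 0.09). The same number passed whichever untreated array was left out, and 3 passed without both arrays numbered 3. The argininosuccinate synthetase gene ARG1 was at 11.82, 11.66 and 12.38 in gcn5 cells, against 8.63, 8.76 and 7.64 in wild type cells, a 12.2-fold rise (adjusted p = 0.00093). The ornithine carbamoyltransferase gene ARG3 was at 8.75, 8.58 and 10.03 in gcn5 cells, against 5.37, 5.86 and 5.32 in wild type cells, a 12.1-fold rise (adjusted p = 0.00022). In both genes gcn5 array 3 was the highest and wild type array 3 the lowest array. Without these arrays the difference was 3.05 for ARG1 and 3.05 for ARG3 (adjusted p = 0.011 and 0.00084).

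CPA1, the small subunit gene of the carbamoyl phosphate synthetase for arginine, was at 10.94, 11.26 and 12.28 in gcn5 cells, against 9.92, 9.82 and 9.95 in wild type cells (1.60 ± 0.33, adjusted p = 0.0136). YOR302W, the short reading frame in the leader of the CPA1 transcript, was 4.15-fold higher (adjusted p = 0.01), and both probe sets may read the same transcript. The differences without both arrays numbered 3 were 1.23 for CPA1 (adjusted p = 0.0682) and 1.61 for YOR302W (adjusted p = 0.0278). ARG7, the ornithine acetyltransferase gene, was higher by 1.37 ± 0.17 (adjusted p = 0.00091). ARG4, the argininosuccinate lyase gene, was at 10.76, 10.85 and 10.43 in gcn5 cells, against 10.11, 10.23 and 9.33 in wild type cells (adjusted p = 0.164, and 0.0228 with the block). Among breakdown genes, the ornithine transaminase gene CAR2 was at 9.99, 10.01 and 8.09 in gcn5 cells, against 10.71, 10.92 and 10.42 in wild type cells, a difference of -1.32 ± 0.56 that did not pass (adjusted p = 0.171). The CAR2 difference was -0.82 without both arrays numbered 3 (adjusted p = 0.47).

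Other Gcn4 targets were counted as a list of their own. Of 64 genes of other amino acid synthesis 7 were higher (10.9%), 1 was lower and 56 did not pass (median 0.06). With the block 14 were higher and 5 lower, in a fit that called 8.74% of all genes higher and 7.75% lower. Without both arrays numbered 3 the counts were 2 higher and 1 lower. In all 8 passed, but 4 without gcn5 array 2, and 5 without gcn5 array 3 or wild type array 1. GCN4 itself was higher by 0.47 ± 0.09 (adjusted p = 0.0071), the lysine pathway genes LYS1 by 1.02 ± 0.18 and LYS21 by 0.67 ± 0.13, and the acetolactate synthase subunit gene ILV6 by 0.48 ± 0.09 (adjusted p from 0.0065 to 0.0084). PCL5, the Pho85 cyclin gene through which Gcn4 is marked for destruction, was at 11.04, 10.85 and 11.52 in gcn5 cells, against 9.44, 9.54 and 9.73 in wild type cells (1.57 ± 0.16, adjusted p = 0.0003). Every gcn5 array of PCL5 lay above every wild type array.

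Of 20 vitamin B6 and thiamine genes 6 were higher (30%), 0 were lower and 14 did not pass (median 0.25). The count of 6 was 2 without wild type array 1, 3 without gcn5 arrays 2 or 3 or wild type array 3, and 2 without both arrays numbered 3. SNZ1, a subunit gene of the enzyme that makes pyridoxal phosphate, was at 9.64, 9.64 and 10.36 in gcn5 cells, against 7.82, 8.11 and 7.74 in wild type cells, a 3.98-fold rise (adjusted p = 0.00079). Its partner and divergent neighbour SNO1 was at 6.16, 6.49 and 7.47 in gcn5 cells, against 4.98, 5.50 and 3.66 in wild type cells (adjusted p = 0.0336, and 0.0795 with the block), a call lost without gcn5 arrays 2 or 3 or wild type arrays 1 or 3 (adjusted p from 0.0722 to 0.12). THI13, a gene for the pyrimidine part of thiamine, was 3.64-fold higher (adjusted p = 0.0048), with gcn5 array 3 more than 1 unit above the other gcn5 arrays. THI13 belongs to a family of near-identical copies that may share its signal. Without both arrays numbered 3 the differences were 1.08 for SNO1 (adjusted p = 0.23) and 1.34 for THI13 (adjusted p = 0.0139).

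Genes for growth on carbon sources other than glucose held rises and no fall that passed. In glucose these genes are repressed, and the activators Cat8 and Sip4 turn them on when glucose runs out. Of 29 genes of gluconeogenesis, the glyoxylate cycle and acetate use 9 were higher (31%), 0 were lower and 20 did not pass (median 0.38), and 6 to 9 passed when 1 untreated array was left out. Without both arrays numbered 3 the count was 6, and with the replicate block 12 were higher and 2 lower. CAT8 was at 6.87, 7.18 and 7.07 in gcn5 cells, against 5.09, 5.23 and 5.24 in wild type cells, a 3.6-fold rise (adjusted p = 0.00011). The arrays of CAT8 were within 0.4 of each other in gcn5 cells and closer in wild type cells. SIP4 was higher by 1.03 ± 0.21 (adjusted p = 0.0108), with all 3 wild type arrays near background. The phosphoenolpyruvate carboxykinase gene PCK1 was at 7.17, 7.39 and 7.77 in gcn5 cells, against 5.94, 6.37 and 6.15 in wild type cells (1.29 ± 0.17, adjusted p = 0.0012). The carnitine acetyltransferase genes YAT1 and YAT2 were higher by 1.36 ± 0.21 and 1.04 ± 0.11 (adjusted p = 0.0033 and 0.00037), and the cytosolic malate dehydrogenase gene MDH2 by 0.80 ± 0.12 (adjusted p = 0.0025). Not all members followed. The malate synthase gene MLS1 was at 3.94, 4.68 and 4.58 in gcn5 cells, against 5.03, 5.59 and 4.98 in wild type cells (-0.80 ± 0.26, adjusted p = 0.0841, and 0.0315 with the block).

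Among 28 genes of galactose and hexose use 5 were higher (17.9%) and 0 lower (median 0.21), and with the replicate block 7 were higher and 2 lower. In all 5 passed, but 1 without gcn5 array 2, 2 without gcn5 array 3 or wild type arrays 1 or 3, 3 without wild type array 2, and 1 without both arrays numbered 3. SNF3, the sensor of low glucose, was higher by 0.50 ± 0.09 (adjusted p = 0.0072) and was the member that passed whichever array was left out. The glucokinase gene GLK1 was at 12.08, 12.18 and 12.30 in gcn5 cells, against 11.57, 11.72 and 11.26 in wild type cells (adjusted p = 0.0248), a call lost without gcn5 arrays 2 or 3 or wild type arrays 1 or 3 (adjusted p from 0.0614 to 0.0871). The hexose transporter gene HXT4 was at 8.42, 8.57 and 6.86 in gcn5 cells, against 10.03, 10.60 and 8.87 in wild type cells, lower on each gcn5 array than on every wild type array (adjusted p = 0.0575, and 0.0048 with the block or 0.0325 without wild type array 3). The HXT4 difference was -1.82 without both arrays numbered 3 (adjusted p = 0.0662). Of 23 tricarboxylic acid cycle and retrograde genes 2 were higher (with the replicate block 3 were higher and 1 lower), with the mitochondrial isocitrate dehydrogenase gene IDP1 up by 0.60 ± 0.10 (adjusted p = 0.0045). The count of 2 was 1 without gcn5 arrays 2 or 3 or wild type arrays 1, 2 or 3. Of 20 genes of glycolysis and fermentation PYK2, the minor pyruvate kinase gene, was the only call, lower by 0.79 ± 0.12 (adjusted p = 0.0025).

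**Figure D4:**
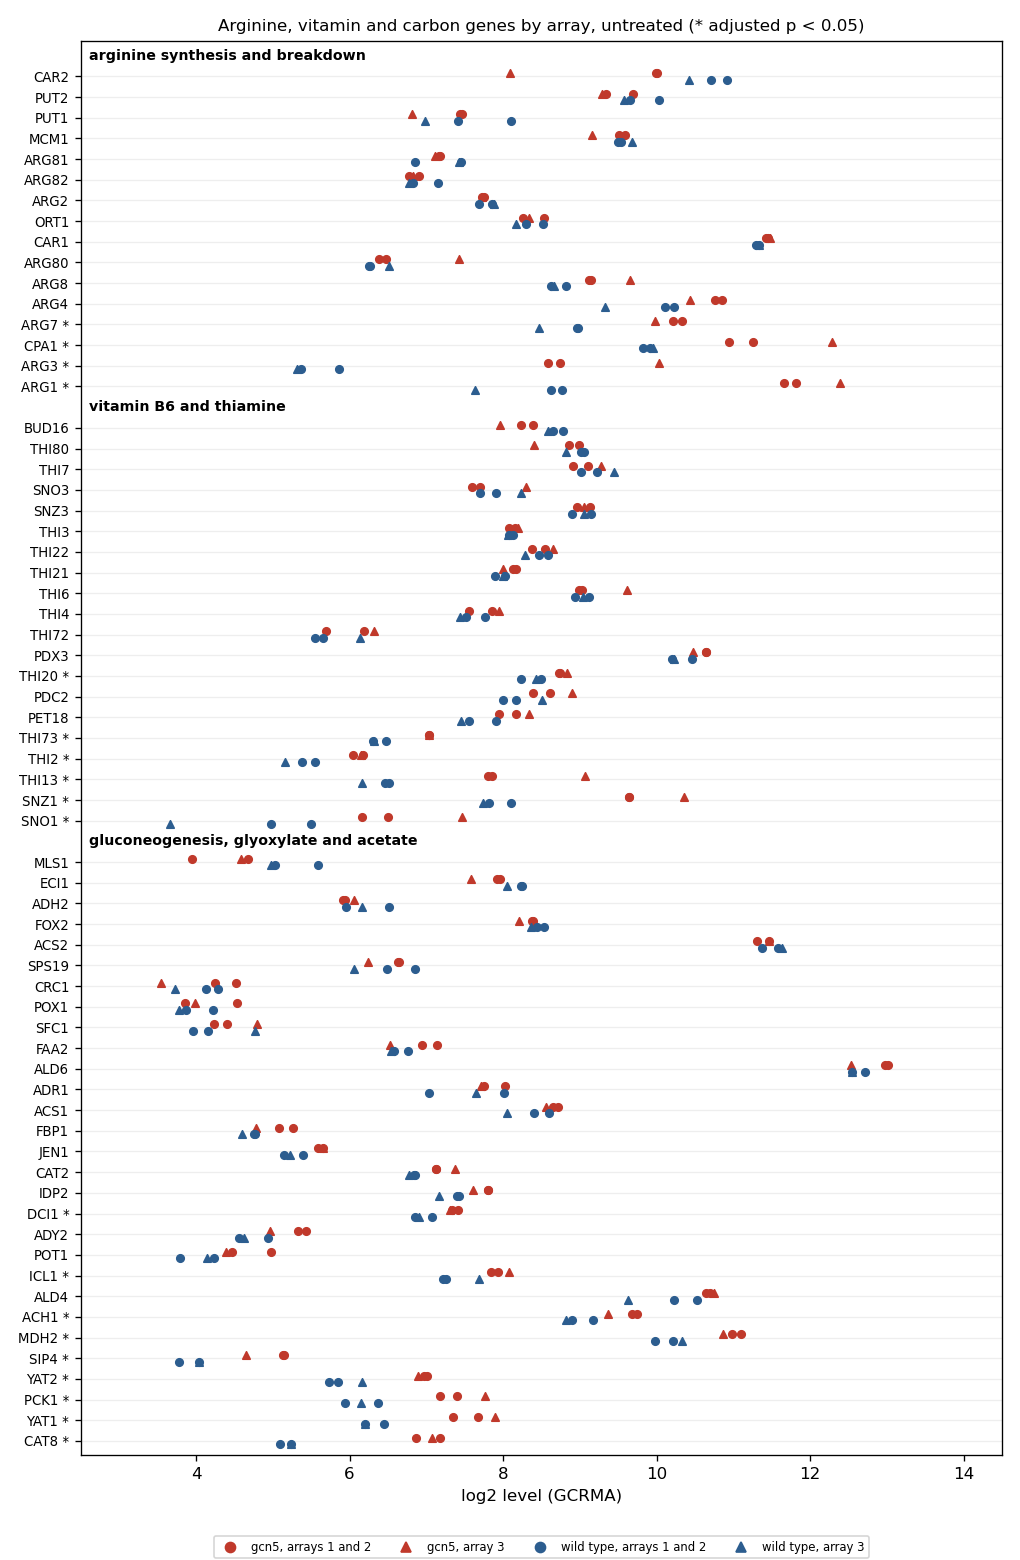
Log2 levels of genes of arginine metabolism, of vitamin B6 and thiamine synthesis and of gluconeogenesis, glyoxylate and acetate use are plotted by array, with gcn5 in red above wild type in blue, arrays numbered 3 as triangles and a star by each gene that passed. The points of ARG1, ARG3, SNZ1 and CAT8 lie in separate ranges for the strains, with gcn5 to the right.

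Of 29 sulfate and methionine genes 3 were higher (10.3%), 2 were lower (6.9%) and 24 did not pass (median -0.12), and 1 were higher and 2 lower without both arrays numbered 3. In all 5 passed, but 3 without gcn5 arrays 1 or 3 or wild type array 1. MET2, which makes O-acetylhomoserine, was at 5.10, 5.21 and 4.89 in gcn5 cells, against 6.56, 6.59 and 6.74 in wild type cells (-1.56 ± 0.11, adjusted p = 4.4e-05). MET14, the kinase gene of sulfate activation, was at 8.03, 7.82 and 7.59 in gcn5 cells, against 9.11, 8.99 and 9.14 in wild type cells (-1.27 ± 0.14, adjusted p = 0.00043). The methylenetetrahydrofolate reductase gene MET13 was at 7.63, 7.86 and 7.59 in gcn5 cells, against 6.38, 6.87 and 6.88 in wild type cells (0.98 ± 0.16, adjusted p = 0.0049). These 3 calls held whichever untreated array was left out.

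The response to cell wall stress included several genes that were lower in untreated cells. It runs through the MAP kinase Slt2 and the factor Rlm1. Of 27 of its genes 6 were lower (22.2%), 1 was higher and 20 did not pass, while the median was 0.07. The balance differed with the block, where 4 were higher and 5 lower. The count of 7 was 3 without wild type arrays 1 or 2, 4 without gcn5 arrays 1 or 2, and 5 without both arrays numbered 3. PRM5, a membrane protein gene and target of the pathway, was at 7.76, 7.97 and 7.71 in gcn5 cells, against 9.55, 9.51 and 9.28 in wild type cells (-1.63 ± 0.19, adjusted p = 0.00059). SVS1, which encodes a wall protein, was at 10.71, 10.62 and 10.16 in gcn5 cells, against 11.75, 11.81 and 11.39 in wild type cells (-1.15 ± 0.15, adjusted p = 0.0011). Both kept their calls whichever untreated array was left out. The mannoprotein gene CWP1 was at 10.24, 10.03 and 7.69 in gcn5 cells, against 11.61, 11.67 and 11.15 in wild type cells (-2.16 ± 0.56, adjusted p = 0.0338), a call lost without wild type arrays 1, 2 or 3 (adjusted p from 0.0582 to 0.106). Its gcn5 array 3 lay more than 2 units below the other gcn5 arrays, and the difference was -1.51 without both arrays numbered 3 (adjusted p = 0.037). SRL3, a suppressor gene of checkpoint loss, and PRM10 lost their calls with the block (adjusted p = 0.0922 and 0.074, against 0.03 and 0.0244). The SRL3 call was lost without gcn5 arrays 1 or 2 or wild type arrays 1 or 2 (adjusted p from 0.0918 to 0.109), and the PRM10 call was lost without gcn5 arrays 1 or 2 or wild type arrays 1 or 2 (adjusted p from 0.067 to 0.091). CRG1, a methyltransferase gene, was the member that was higher, at 7.97, 8.07 and 7.98 in gcn5 cells, against 7.09, 7.28 and 7.10 in wild type cells (0.85 ± 0.16, adjusted p = 0.0087).

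Of 36 genes of wall mannoproteins and glucan enzymes 2 were higher (5.56%) and 3 lower (8.33%, median 0.11), against 4.90% and 4.92% among all genes. With the replicate block 4 were higher and 5 lower, and 1 was higher and 1 lower without both arrays numbered 3. In all 5 passed, but 2 without gcn5 arrays 1 or 2 or wild type arrays 2 or 3, and 3 without wild type array 1. PRY1, which encodes a secreted sterol-binding protein, was at 11.82, 11.75 and 12.64 in gcn5 cells, against 10.44, 10.60 and 9.77 in wild type cells (1.80 ± 0.34, adjusted p = 0.0087, and 0.0785 without both arrays numbered 3). NCA3, a gene of the SUN family of wall proteins, was lower by 0.79 ± 0.14, at 4.88, 5.02 and 5.06 in gcn5 cells, against 5.74, 6.06 and 5.53 in wild type cells (adjusted p = 0.0071). Outside the list, the mannoprotein gene HPF1 had the third largest rise, at 10.76, 10.49 and 12.74 in gcn5 cells, against 8.82, 9.06 and 9.38 in wild type cells (2.24 ± 0.60, adjusted p = 0.0398). Its gcn5 array 3 was about 2 units above the other gcn5 arrays, and the call was lost without any 1 untreated array other than gcn5 array 2 (adjusted p from 0.0537 to 0.12). The HPF1 difference was 1.68 without both arrays numbered 3 (adjusted p = 0.145). YEA4, which encodes a transporter of the chitin precursor UDP-N-acetylglucosamine, was at 6.12, 6.37 and 6.15 in gcn5 cells, against 8.37, 8.41 and 8.33 in wild type cells (-2.16 ± 0.10, adjusted p = 3.9e-07). The spread between its arrays was small next to the difference. The secreted glycoprotein gene YGP1, of the general stress list, was at 8.40, 8.30 and 7.49 in gcn5 cells, against 11.67, 11.88 and 10.78 in wild type cells, a 10.5-fold fall (adjusted p = 0.00037).

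Of 26 genes of the G1 to S transition and HO, 6 were lower (23.1%, against 4.92% among all genes), 0 were higher and 20 did not pass (median -0.14). With the replicate block 2 were higher and 7 lower, and 3 were lower without both arrays numbered 3. When 1 untreated array was left out 4 to 6 passed. HO, the endonuclease gene of mating type switching, was at 8.85, 8.72 and 8.97 in gcn5 cells, against 10.43, 10.54 and 10.22 in wild type cells (-1.55 ± 0.17, adjusted p = 0.00043). MNN1, a mannosyltransferase gene expressed at the same time, fell by 1.20 ± 0.24 (adjusted p = 0.0101). SVS1 and PCL2, given above, belong to this list as well. The S phase cyclin gene CLB6 was at 7.82, 7.82 and 7.40 in gcn5 cells, against 8.69, 8.72 and 8.30 in wild type cells (adjusted p = 0.0322), a call lost without any 1 untreated array other than wild type array 3 (adjusted p from 0.0546 to 0.114).

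Of 20 chaperone genes under the heat shock factor 4 were lower (20%), 0 were higher and 16 did not pass (median -0.16), and 3 were lower without both arrays numbered 3. BTN2 and CUR1, whose products sort misfolded proteins, fell by 1.54 ± 0.21 and 1.0 ± 0.09 (adjusted p = 0.0016 and 0.00016). HSP82, the inducible Hsp90 gene, was at 10.27, 10.30 and 10.42 in gcn5 cells, against 11.24, 11.22 and 11.06 in wild type cells (-0.85 ± 0.12, adjusted p = 0.0017). These 3 genes passed whichever untreated array was left out. Of 36 general stress genes 1 was higher and 2 lower, YGP1 and the glycerol 3-phosphate dehydrogenase gene GPD1 (-0.97 ± 0.19, adjusted p = 0.0102), and with the replicate block 2 were higher and 4 lower. Of 18 trehalose and glycogen genes the debranching enzyme gene GDB1 was the only call, higher by 0.92 ± 0.18 (adjusted p = 0.0095), and with the replicate block 2 were higher and 1 lower. The count of 1 was 2 without wild type array 3.

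Among 30 ergosterol genes 3 were lower (10%) and 1 higher (3.33%, median -0.05), against 4.92% and 4.90% among all genes. With the replicate block 5 were higher and 4 lower, and 0 were higher and 1 lower without both arrays numbered 3. In all 4 passed, but 1 without wild type array 2, and 2 without gcn5 arrays 2 or 3 or wild type arrays 1 or 3. ERG9, the squalene synthase gene, was at 9.80, 10.01 and 10.25 in gcn5 cells, against 11.06, 11.12 and 11.21 in wild type cells (-1.11 ± 0.13, adjusted p = 0.00079). ERG25, the sterol oxidase gene, was higher by 0.71 ± 0.15 (adjusted p = 0.0157), a call lost without gcn5 array 3 or wild type arrays 1 or 2 (adjusted p from 0.0571 to 0.0612). Of 31 purine and pyrimidine genes 4 were lower (12.9%) and 1 higher (3.23%, median -0.29). With the replicate block 2 were higher and 12 lower, in a fit that called 8.74% of all genes higher and 7.75% lower. Without both arrays numbered 3 the counts were 2 higher and 1 lower. The count of 5 was 2 without gcn5 array 3 or wild type array 2, and 3 without gcn5 array 1. FUR1, which salvages uracil, was at 10.61, 10.70 and 10.47 in gcn5 cells, against 11.22, 11.51 and 11.46 in wild type cells (-0.80 ± 0.12, adjusted p = 0.003), and URA2, which starts pyrimidine synthesis, was at 12.74, 12.80 and 12.79 in gcn5 cells, against 12.05, 11.97 and 12.43 in wild type cells (0.63 ± 0.12, adjusted p = 0.0099).

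Genes normally on in anaerobic or heme-poor cells were higher in 5 of 20 cases (25%), and 0 were lower (median 0.39). In all 5 passed, but 3 without gcn5 array 2 or wild type array 1, and 3 without both arrays numbered 3. The wall mannoprotein gene TIR3 was at 10.69, 10.74 and 10.46 in gcn5 cells, against 8.87, 8.97 and 9.25 in wild type cells (1.60 ± 0.12, adjusted p = 5.1e-05). DAN4, of the same kind, was higher by 1.14 ± 0.22 (adjusted p = 0.0096), and ANB1, the anaerobic form of the translation factor eIF5A, by 0.59 ± 0.10 (adjusted p = 0.0057). These 3 calls held whichever untreated array was left out. ROX1, the repressor gene of such genes in air, was higher too, at 10.06, 10.08 and 10.66 in gcn5 cells, against 9.22, 9.13 and 9.61 in wild type cells (adjusted p = 0.0317), a call lost without gcn5 arrays 2 or 3 or wild type arrays 1 or 2 (adjusted p from 0.0564 to 0.111). None of the 12 seripauperin genes passed, although their median was 0.61 and 3 were higher with the block. These genes are so alike that their probe sets can share signal.

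Of 21 genes for the other subunits of SAGA and ADA 1 was higher and 1 lower (4.76% each), close to the shares of all genes, and 0 were higher and 0 lower without both arrays numbered 3. UBP8, the ubiquitin protease gene of SAGA, was at 8.31, 8.29 and 7.86 in gcn5 cells, against 8.71, 8.98 and 9.03 in wild type cells (-0.76 ± 0.16, adjusted p = 0.0126), and its call held whichever untreated array was left out. SGF73, of the same module, differed by 0.39 ± 0.11 (adjusted p = 0.044), a call lost without any 1 of the 6 untreated arrays (adjusted p from 0.0761 to 0.144). Of 29 genes of other histone acetyltransferases and deacetylases 1 was higher and 1 lower, EAF1 of the NuA4 complex (0.59 ± 0.13, adjusted p = 0.02) and SAS2, another acetyltransferase gene (-0.38 ± 0.10, adjusted p = 0.0439). The EAF1 call was lost without gcn5 arrays 2 or 3 or wild type array 1 (adjusted p from 0.0512 to 0.0757), and the SAS2 call was lost without any 1 of the 6 untreated arrays (adjusted p from 0.0781 to 0.145). Of 10 histone genes HTZ1, the variant H2A.Z, was the only call, higher by 0.33 ± 0.08 (adjusted p = 0.0218) and lost without any 1 untreated array other than wild type array 2 (adjusted p from 0.0554 to 0.0778).

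Several lists had a share of calls at or below that of all genes. No gene passed among 128 cytosolic ribosomal protein genes (median -0.05), 69 ribosome biogenesis genes (median -0.0045) and 16 genes of cell separation (median 0.06). Of 66 mitochondrial ribosomal protein genes 1 was lower and 0 higher (median -0.21), and with the replicate block 0 were higher and 4 lower. The count of 1 was 0 without gcn5 arrays 2 or 3 or wild type arrays 1, 2 or 3. Of 37 genes of the respiratory chain and ATP synthase 2 were higher and 1 lower, and with the replicate block 4 were higher and 2 lower. In all 3 passed, but 0 without gcn5 arrays 1 or 2, and 1 without gcn5 array 3 or wild type arrays 1, 2 or 3. Among 35 iron and copper genes 2 were lower, and the reductase gene FRE7 was at 5.94, 6.48 and 6.10 in gcn5 cells, against 7.50, 8.90 and 8.46 in wild type cells (-2.11 ± 0.37, adjusted p = 0.0059). With the block 6 of this list were higher and 3 lower, and 1 passed whichever untreated array was left out. Of 22 drug efflux genes the ABC transporter gene PDR15 was the only call, at 8.48, 9.05 and 8.05 in gcn5 cells, against 9.87, 10.09 and 10.13 in wild type cells (-1.50 ± 0.25, adjusted p = 0.005), and with the replicate block 3 were higher and 1 lower. The count of 1 was 2 without gcn5 arrays 2 or 3.

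The counts were 1 higher (4%) and 3 lower (12%) of 25 redox genes, against 4.90% and 4.92% among all genes. The dehydrogenase gene OYE3 was up by 0.88 ± 0.17 (adjusted p = 0.0087). Without both arrays numbered 3 the counts of this list were 1 higher and 0 lower. In all 4 passed, but 1 without gcn5 arrays 1 or 2 or wild type arrays 2 or 3, and 2 without gcn5 array 3. Of 37 genes of amino acid, peptide and nitrogen transport 4 were higher (10.8%) and 2 lower (5.41%). The branched-chain amino acid permease gene BAP2 was up by 0.58 ± 0.12 (adjusted p = 0.01). With the replicate block 6 of this list were higher and 7 lower, and 1 was higher and 0 lower without both arrays numbered 3. The count of 6 was 1 without gcn5 array 1 or wild type array 3, and 2 without gcn5 arrays 2 or 3. Last, the counts were 0 higher and 1 lower of 22 inositol and phospholipid genes. In all 1 passed, but 0 without gcn5 arrays 2 or 3 or wild type arrays 1 or 2. They were 1 higher and 0 lower of 21 genes of the unfolded protein response, where YET3 passed (adjusted p = 0.0385) and lost its call with the block (adjusted p = 0.0581), a call lost without any 1 untreated array other than wild type array 1 (adjusted p from 0.0793 to 0.139). For the 21 genes with the replicate block 1 were higher and 2 lower.

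Other genes among the 25 largest changes in each direction fell outside these groups. Among the rises, the putative permease gene SEO1 was at 6.34, 6.30 and 6.94 in gcn5 cells, against 3.55, 5.11 and 4.53 in wild type cells (2.13 ± 0.42, adjusted p = 0.0101). The cardiolipin deacylase gene CLD1 was at 8.09, 7.99 and 8.06 in gcn5 cells, against 6.31, 6.47 and 5.85 in wild type cells (1.84 ± 0.17, adjusted p = 0.00016). SGA1, the glucoamylase gene of sporulating cells, was at 7.63, 7.74 and 7.14 in gcn5 cells, against 5.71, 5.98 and 5.21 in wild type cells (1.87 ± 0.22, adjusted p = 0.00059). In all 3 genes the strains did not overlap. BOP2, of unknown function, was 3.07-fold higher (adjusted p = 0.0016), ECM13 3.73-fold (adjusted p = 0.0083), YKR041W 4.24-fold (adjusted p = 0.00022) and YLL066W-B 3.79-fold (adjusted p = 0.00043). SNO4 has near-identical copies and was 3.58-fold higher (adjusted p = 0.0087). The ECM13 difference was 2.16 without both arrays numbered 3 (adjusted p = 0.0064). For another 4 of the 25 largest rises, the call was lost in several of the fits that left out 1 untreated array. CRF1, a corepressor gene of ribosomal protein genes, was at 5.68, 5.78 and 7.13 in gcn5 cells, against 4.17, 4.72 and 4.55 in wild type cells (adjusted p = 0.0468), a call lost without any 1 of the 6 untreated arrays (adjusted p from 0.0546 to 0.158). ICS3 was at 8.36, 7.18 and 7.93 in gcn5 cells, against 6.64, 5.43 and 6.13 in wild type cells (adjusted p = 0.0419), a call lost without any 1 untreated array other than gcn5 array 2 (adjusted p from 0.0532 to 0.151). HBN1 was at 8.63, 8.68 and 9.71 in gcn5 cells, against 7.52, 7.34 and 7.71 in wild type cells (adjusted p = 0.0245), a call lost without gcn5 array 3 or wild type arrays 1 or 2 (adjusted p from 0.0725 to 0.0867). YPR015C was at 5.90, 5.89 and 7.13 in gcn5 cells, against 4.89, 4.75 and 5.0 in wild type cells (adjusted p = 0.0322), a call lost without gcn5 array 3 or wild type arrays 1, 2 or 3 (adjusted p from 0.0633 to 0.101). The gcn5 arrays of these 4 genes all lay above the wild type arrays. The differences without both arrays numbered 3 were 1.29 for CRF1 (adjusted p = 0.228), 1.22 for HBN1 (adjusted p = 0.114) and 1.07 for YPR015C (adjusted p = 0.137). Among the falls were YCL021W-A at -1.86 ± 0.20, YRO2, a membrane protein gene, at -1.66 ± 0.24, the putative dehydrogenase gene BDH2 at -1.60 ± 0.32 and YNL040W at -1.58 ± 0.14 (adjusted p from 0.00011 to 0.0105). YBL100W-A belongs to a Ty retrotransposon with many copies. It differed by -1.93 ± 0.48 (adjusted p = 0.0302), a call lost without gcn5 arrays 2 or 3 or wild type arrays 1 or 3 (adjusted p from 0.0811 to 0.105). Genes without a common name made up 448 of those tested, and 66 of them passed, 31 higher and 35 lower. Among all 5345 genes 525 passed (9.82%), 262 higher and 263 lower.

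The same strains were also compared in Congo Red, on 6 other arrays from the other parts of the divided cultures. The comparisons share cultures and the estimate of spread for each gene, so they are not independent. In Congo Red 586 genes passed (11.0%), and 305 passed in both comparisons, 58.1% of the untreated calls and 52% of the Congo Red calls. Of these 304 had the same direction. Of the 115 untreated calls of at least 2-fold, 94 also passed in Congo Red in the same direction. All 15 phosphate calls passed in Congo Red as well in the same direction (list median there -0.84), and so did 3 of the 4 a-specific calls (median -1.92) and 8 of the 9 calls of the gluconeogenesis list (median 0.20). In Congo Red 2 other genes of the gluconeogenesis list were lower. PHO84 differed by -6.81 ± 1.19 in Congo Red (adjusted p = 0.0047), MFA1 by -3.84 ± 0.44 (adjusted p = 0.0005) and ARG1 by 4.06 ± 0.45 (adjusted p = 0.00045). The cell wall stress list had 14 lower and 0 higher genes in Congo Red (median -0.60). The ribosome biogenesis list had 20 higher and 0 lower there (median 0.34), against 0 passing in either direction untreated. Of the genes in both lists, only BAG7, of the cell wall list, passed the interaction described next in the main fit.

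The interaction term tested whether the strain difference depends on Congo Red. It passed in 3 genes (0.0561%), BAG7, YPL088W and HAL1, and 310 genes had an unadjusted p under 0.05. With a block for culture 30 passed, without wild type array 3 in Congo Red 5, with a variance prior that follows intensity 6 and without all 4 arrays numbered 3 13. BAG7, which encodes a GTPase activating protein, was at 4.09, 3.99 and 4.19 in gcn5 cells, against 4.28, 3.94 and 3.86 in wild type cells without Congo Red, close to background, and at 4.76, 4.84 and 4.81 in gcn5 cells, against 6.49, 6.71 and 6.55 in wild type cells, with it. The strains overlapped without Congo Red, and each gcn5 array lay below every wild type array with it. HAL1, a gene of salt tolerance, was at 7.03, 6.77 and 7.04 in gcn5 cells, against 7.13, 6.94 and 6.71 in wild type cells untreated, where the strains overlapped too. CRG1 was the gene that passed in both comparisons with opposite signs, 0.85 ± 0.16 untreated and -0.58 ± 0.16 in Congo Red (adjusted p = 0.0416). Its interaction had an adjusted p of 0.0588, and 0.0192 with the culture block.

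**Figure D5:**
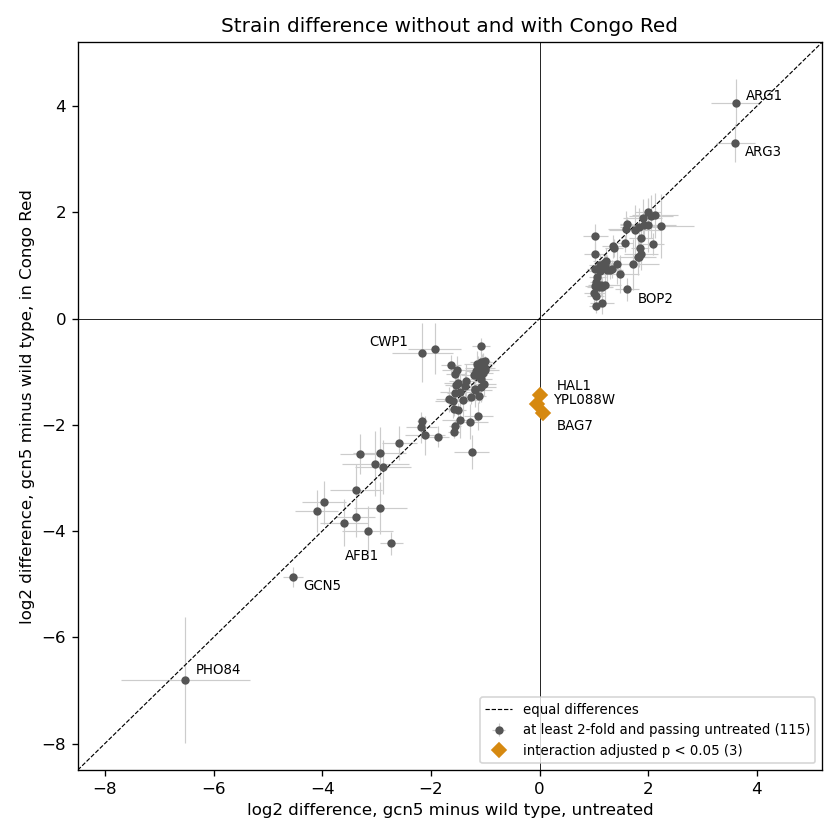
The log2 difference of gcn5 minus wild type cells in Congo Red (vertical axis) is plotted against that without it (horizontal axis), with SE bars, for the 115 genes that passed at 2-fold or more untreated (grey) and the 3 genes that passed the interaction (orange). Of the grey genes 94 passed in Congo Red in the same direction as untreated, and the 3 orange points lie near 0 on the horizontal axis and between -1.78 and -1.44 on the vertical axis.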

How the data were processed

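Total RNA of untreated gcn5 and wild type cells was read on Affymetrix arrays, 3 for each strain, taken from 12 arrays in 4 groups. The deposited values are log2 levels of each probe set that the authors made with a GCRMA of unstated version, per the notes on processing from the submitters. GCRMA models background from probe sequence and normalises arrays by quantiles, so a shift of all transcripts would not be seen. Of 5716 probe sets 5498 had 1 gene symbol, 0 several and 218 none, per the platform annotation, which can be old. All 5498 matched RefSeq's gene table of assembly R64, through which 12 symbols were updated. The probe set with the highest mean represented each of 5449 genes, and the 5345 with log2 over 4 on at least 3 arrays were tested. No build is named for the array, and promoter motifs and sequences were not analysed here.

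limma 3.58.1 in R 4.3.3 fitted 4 group means over all 12 arrays (8 residual degrees of freedom), with Benjamini-Hochberg adjustment over the genes tested at 0.05. Untreated and Congo Red arrays come from divided cultures, so these degrees of freedom count parts of shared cultures as independent. The test was first tried on simulated data with independent noise on every array. That trial had no divided cultures, so it could not show how they affect the rate of false calls. Same-numbered arrays of the strains deviated together (correlations of deviations from group means 0.53, 0.39 and 0.44, against -0.47 to 0.09 for other pairs), and the number served as a block in an alternative. Other alternatives left out arrays, changed the filter, the centring, the floor, the probe set rule or the variance prior, or used the 6 untreated arrays alone. Those without arrays numbered 3 were chosen after seeing the data.

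Genes and lists were chosen with earlier results of these data known. By rule the text may name GCN5 and its neighbours (given here as a count), the strain markers, the 25 largest rises and 25 largest falls that passed without overlap, up to 8 lowest-p members of each of 37 lists and the interaction calls. VTC1, VTC2, VTC4, PHO4, PHO8, PHO81, PHO85, PHO86, PHO91, GDE1, FIG1, PRM2, PRM6, MLS1, SAG1, STE3 and MF(ALPHA)2 were named outside that rule, after their values were seen. For a group under 4 on all its arrays a fold is a bound, with values under 4 set to 4.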

Additional observations from a re-analysis of the deposited data

Results flagged for a closer look

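BAG7 differed between strains by 0.07 ± 0.12 (log2, SE) in untreated cells and by -1.78 ± 0.12 in Congo Red, a change of the strain difference of -1.85 ± 0.17 by the interaction term (limma, adjusted p = 0.0013). YPL088W, a putative aryl alcohol dehydrogenase gene, differed by -0.05 ± 0.11 untreated and by -1.62 ± 0.11 in Congo Red, a change of -1.56 ± 0.15 (adjusted p = 0.0013). HAL1 differed by 0.02 ± 0.12 untreated and by -1.44 ± 0.12 in Congo Red, a change of -1.46 ± 0.17 (adjusted p = 0.0077). In these 3 genes the strains overlapped without Congo Red, and in Congo Red each of the 3 gcn5 arrays lay below each of the 3 wild type arrays. All 3 interactions passed in every setting run.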

How the results depend on the processing

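The 262 higher and 263 lower genes became 467 and 414 (881 in all) with the replicate number as a block, and 84 and 118 of 202 in all without both untreated arrays numbered 3. Leaving out 1 untreated array gave 265 to 389 genes in all, 128 to 183 higher and 137 to 206 lower, and leaving out 1 Congo Red array gave 450 to 615 in all. The other settings gave 380 to 546 genes in all. Of 115 named calls 110 passed with the block, 102 without all 4 arrays numbered 3, and 77 without both untreated arrays numbered 3. The 38 that did not pass there kept their sign: AFR1, BAP2, CLB6, CPA1, CRF1, CRG1, EAF1, ERG25, FRE7, FUS3, GDB1, GDE1, GLK1, HBN1, HPF1, HTZ1, ICS3, ILV6, KSS1, LYS21, MNN1, PHO91, PRY1, ROX1, SAS2, SEO1, SGF73, SNF3, SNO1, SNO4, SPS4, STE2, STE6, UBP8, YBL100W-A, YET3, YPR015C and ZIP1. A fit of the 6 untreated arrays alone, which leaves out the Congo Red parts of the divided cultures and has fewer arrays, gave 380 genes, 346 of them among the 525, and in it 18 named calls did not pass: AFR1, CWP1, GDE1, GPD1, HPF1, HTZ1, KAR4, KSS1, PRM10, SAS2, SNO1, SPS4, SRL3, STE2, YBL100W-A, YET3, YPR015C and ZIP1. No setting turned the sign of a named call.

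The interaction passed in 3 genes, in 30 with the culture as a block, in 6 with a variance prior that follows intensity, in 13 without all 4 arrays numbered 3 and in 3 to 5 when 1 array was left out. BAG7 and HAL1, whose strains hardly differed untreated, had differences that changed sign. The difference was -0.071 for BAG7 and -0.138 for HAL1 without arrays numbered 3. When 1 untreated array was left out it ranged from -0.0191 to 0.193 for BAG7 and from -0.0924 to 0.117 for HAL1, with -0.0272 and -0.0293 for HAL1 without gcn5 arrays 1 and 3. SAG1, HIS3 and STE3, given as levels of marker genes, had small differences that changed sign as well. They ranged from -0.017 to 0.248 for SAG1, from -0.15 to 0.114 for HIS3 and from -0.0133 to 0.0965 for STE3 when 1 untreated array was left out, and SAG1 was at -0.0741 without arrays numbered 3. The causes were not tested. A total of 3 arrays for each strain, and levels near background, limit what could be detected.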
